A study of Mus musculus with 12 samples.

Results

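Platelet and megakaryocyte genes were measured in hematopoietic stem cells (HSCs) of mice given estradiol (E2), the main estrogen, or the oil vehicle alone. The 10 genes considered were Pf4, Ppbp, Vwf, Gp5, Gp9, Gp1bb, Itga2b, Selp, Plek and Rab27b, which were chosen by name as genes of the platelet lineage that are active in platelet-primed HSCs. Earlier results of these data were known when they were chosen. A gene was counted when the array had a probe set annotated with its symbol and no other, which held for 8 genes with 1 probe set each, out of 19935 genes measured in this way. Gp1bb shared its probe set with the neighbouring gene Septin5, and Selp had no probe set with its symbol in the annotation used here, so neither has a value of its own. Of the 8 genes, 7 lay above the filter on dim genes and Ppbp lay below it.

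From mice aged 2 to 3 months, lots of 5000 to 7000 lineage- cells were collected that carried c-kit, Sca-1 and CD150 and lacked CD48. The 4 groups were males given oil, males given E2, females given oil and females given E2, with 3 mice and 3 arrays in each. Every mouse received 100 µL of corn oil under the skin, alone or carrying 2 µg of E2. Strain, duration of treatment and time from injection to sorting were not given in the sources used here, so the total dose is not known. The values are linear probe set intensities of an Affymetrix Mouse Gene 1.0 ST array, with a median per array of 143 to 159, and an intensity of 182 was taken as the lower limit for testing. The RNA of the sort markers was read first. Kit read 1820 to 2756 and Slamf1, which encodes CD150, read 350 to 686 over the 12 arrays, while Cd48 read 62.8 to 116, below the filter. Because each array holds RNA pooled from many cells, fewer cells of a type and less RNA per cell cannot be told apart.

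Megakaryocytes are the large marrow cells that shed platelets, and a share of HSCs already transcribes part of their program. In those cells the products sit in 3 places: secreted proteins are packed into granules, receptors on the surface bind the vessel wall and fibrinogen, and kinase substrates and Rab proteins link activation to granule release. Transcription factors of the GATA and ETS families, together with Runx1, Tal1 and Nfe2, are known to drive these genes.

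Pf4, Plek, Gp5 and Itga2b read lower on every E2 array than on every oil array, and their promoters are shown because these 4 genes moved together. The sequences are from RefSeq on GRCm38.p6, 250 bases ending just before the transcription start, written 5′ to 3′ on the strand of the gene. They lie at chr5:90772185-90772434 (plus strand) for Pf4, chr11:17008719-17008968 (minus strand) for Plek, chr16:30310782-30311031 (minus strand) for Gp5 and chr11:102469884-102470133 (minus strand) for Itga2b. Capitals mark the GATA-type letters GATAA and the ETS-type letters GGAAG, or their reverse complements TTATC and CTTCC.
Pf4: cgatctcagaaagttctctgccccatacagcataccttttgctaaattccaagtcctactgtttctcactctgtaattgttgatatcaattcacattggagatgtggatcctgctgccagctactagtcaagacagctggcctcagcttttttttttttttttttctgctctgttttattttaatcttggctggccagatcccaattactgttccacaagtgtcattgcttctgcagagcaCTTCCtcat
Plek: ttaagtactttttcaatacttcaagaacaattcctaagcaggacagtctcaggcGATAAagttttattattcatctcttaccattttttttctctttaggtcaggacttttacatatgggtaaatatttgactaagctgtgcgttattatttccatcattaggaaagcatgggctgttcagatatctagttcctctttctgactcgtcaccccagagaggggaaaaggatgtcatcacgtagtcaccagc
Gp5: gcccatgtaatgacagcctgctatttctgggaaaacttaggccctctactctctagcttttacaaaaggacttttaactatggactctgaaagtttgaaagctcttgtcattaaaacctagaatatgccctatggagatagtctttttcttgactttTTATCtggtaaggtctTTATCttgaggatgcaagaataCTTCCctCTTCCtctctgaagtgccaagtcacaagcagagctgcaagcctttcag
Itga2b: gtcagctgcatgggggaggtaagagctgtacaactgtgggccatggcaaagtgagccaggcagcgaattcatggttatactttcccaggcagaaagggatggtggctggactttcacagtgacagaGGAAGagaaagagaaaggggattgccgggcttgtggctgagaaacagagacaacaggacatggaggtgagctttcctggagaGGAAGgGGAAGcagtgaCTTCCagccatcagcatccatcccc
The Gp5 window held both motifs, with TTATC at 93 to 89 and at 77 to 73 bases before the start and CTTCC at 55 to 51 and 48 to 44. Itga2b had 4 copies of GGAAG and none of GATAA, Pf4 had CTTCC at 9 to 5 bases before the start, and Plek had GATAA alone, at 196 to 192. In the same window of Gp9, whose listed start lies inside the annotated span of the gene, GATAA lay at 43 to 39 bases before the start and GGAAG occurred 2 times. Of all 32851 promoter windows of this length, 22.6% held GATAA on either strand, 64.1% held GGAAG and 13.2% held both. Windows were read for 8 of the 10 listed genes, all but Vwf and Rab27b. Of these 8, 3 held GATAA, 7 held GGAAG and 2 held both.

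The question for each gene was whether E2 changed its level in HSCs of either sex. With E2, the chemokine gene Pf4, the kinase substrate gene Plek and the receptor genes Gp5 and Itga2b fell, and the receptor gene Gp9 rose, while Vwf and Rab27b did not pass the test. Averaged over the sexes, Pf4 was 2.64-fold lower, Plek 2.52-fold lower, Gp5 1.70-fold lower, Itga2b 1.36-fold lower and Gp9 1.42-fold higher. Of the 7 tested genes, 4 were called lower and 1 higher by limma at an adjusted p under 0.05 over 9967 genes, where 8.9% of all genes were called, 5.78% lower and 3.12% higher. The median log2 fold change was -0.44 over the 7 genes and -0.01 over all genes tested. Because the genes were chosen with earlier results of these data known, the shares of all genes are no independent baseline for them.

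**Figure D1:**
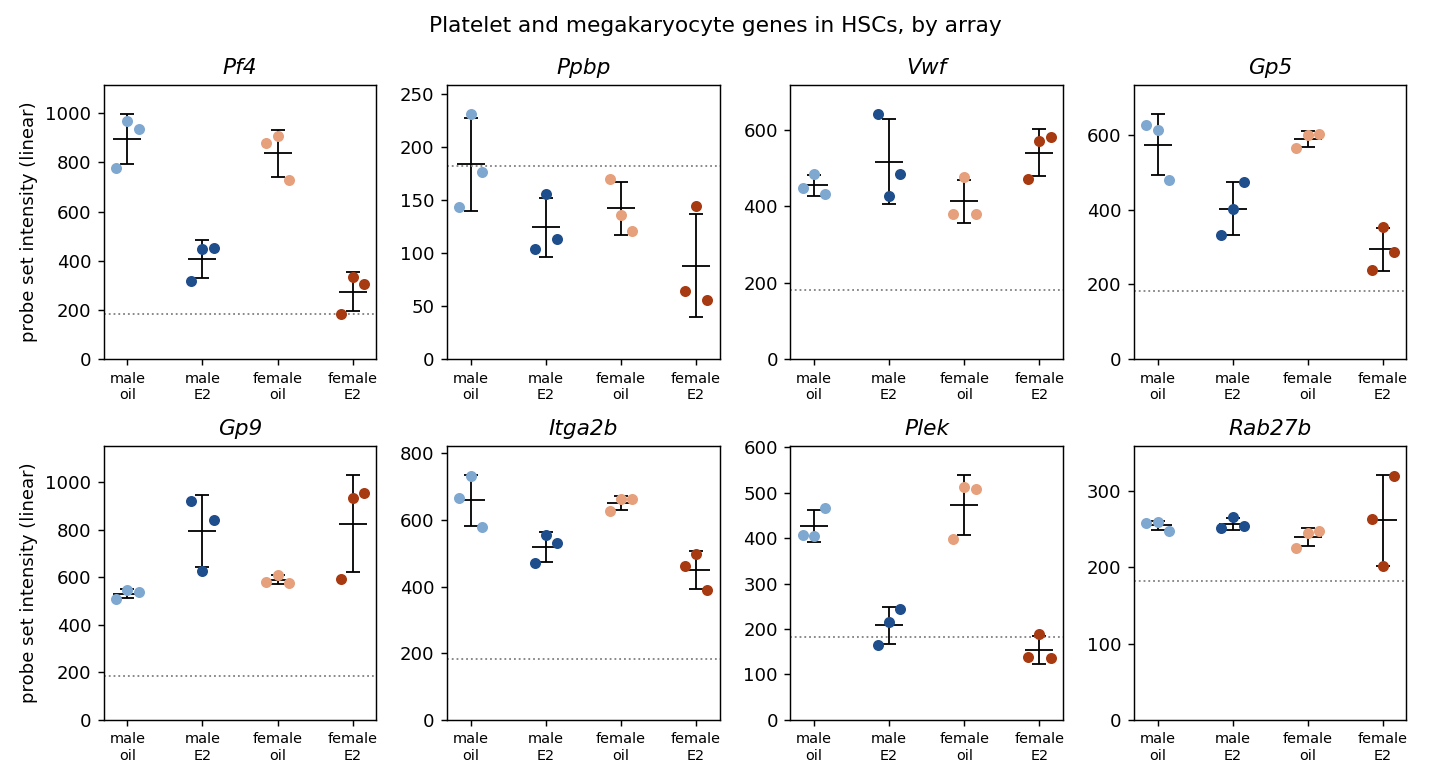
Probe set intensity (linear scale) of the 8 genes with a value on each of the 12 arrays, by sex and treatment. Points are arrays, bars are the mean ± SD of 3 arrays and the dotted line is the filter value of 182. The E2 points of Pf4, Plek, Gp5 and Itga2b lie below all oil points, and the male E2 points of Gp9 lie above the male oil points.

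Among the secreted proteins, Pf4 encodes platelet factor 4, a heparin-binding chemokine of platelet granules (chr5:90772435-90773383, GRCm38.p6). Its intensity was 778, 968 and 936 in oil-treated males and 317, 446 and 454 in E2-treated males. In females it was 879, 905 and 728 with oil and 183, 334 and 303 with E2. All 6 E2 arrays lay below all 6 oil arrays, which 3.43% of all genes tested also showed. The log2 fold change was -1.15 ± 0.20 in males (SE; adjusted p = 0.0102) and -1.65 ± 0.20 in females (adjusted p = 0.000816), and -1.40 ± 0.14 on average (adjusted p = 6.59e-05). Pf4 and Plek were the 2 of 7 genes called in males, both lower, where 1.43% of all genes were called (0.863% lower and 0.572% higher). In females 4 of 7 were called, all lower, where 3.56% of all genes were called (2.75% lower and 0.813% higher). The call in males was lost without male oil replicate 2 (-1.09, adjusted p = 0.0624) and without male E2 replicate 1 (-0.98, adjusted p = 0.0503).

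Ppbp encodes pro-platelet basic protein, the precursor of a further platelet chemokine, and its gene ends 2371 bases before Pf4 on the same chromosome. It read 144, 231 and 176 in oil-treated males, 103, 156 and 114 in E2-treated males, 169, 136 and 121 in oil-treated females and 64.2, 144 and 55.7 in E2-treated females. The treatments overlapped in each sex, and most values lay below the filter value of 182, so the level is low. In a fit without the filter, the averaged log2 fold change was -0.68 ± 0.21 and was not called (adjusted p = 0.118). Without female E2 replicate 2, the highest of its group, it was -0.89 (adjusted p = 0.008).

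Vwf encodes von Willebrand factor, the plasma and granule protein that tethers platelets to collagen (chr6:125552948-125686679). It read 449, 485 and 432 in oil-treated males and 642, 427 and 485 with E2, then 381, 478 and 380 in oil-treated females and 471, 571 and 581 with E2. The groups overlapped in both sexes, with male E2 replicate 1 highest of all arrays. The log2 fold change was 0.16 ± 0.14 in males (adjusted p = 0.644) and 0.39 ± 0.14 in females (adjusted p = 0.157), and 0.28 ± 0.10 on average (adjusted p = 0.108; 95% interval 0.06 to 0.50). Its estimate lay on the other side of 0 from those of Pf4, Plek, Gp5 and Itga2b.

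The surface receptors came from a shared complex and an integrin. Gp5, Gp9 and Gp1bb encode subunits of the receptor for von Willebrand factor, and Itga2b encodes the alpha chain of the fibrinogen receptor, also called CD41. Gp5 (chr16:30307685-30310781) read 627, 614 and 480 in oil-treated males and 331, 401 and 475 with E2. In females it read 564, 600 and 604 with oil and 239, 354 and 287 with E2. The groups did not overlap in either sex, as for 4 of 7 genes (13% of all genes were lower without overlap in males and 13.1% in females), although male oil replicate 3 and male E2 replicate 3 lay close together at 480 and 475. The log2 fold change was -1.02 ± 0.16 in females (adjusted p = 0.00401) and -0.77 ± 0.11 on average (adjusted p = 0.000947), while in males it was -0.52 ± 0.16 and was not called (adjusted p = 0.138).

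Gp9, a small subunit of the same receptor (chr6:87776131-87779786), went the other way. It read 508, 547 and 538 in oil-treated males and 920, 626 and 841 with E2. In females it read 580, 610 and 575 with oil and 590, 933 and 953 with E2. The male groups did not overlap, which 13.6% of all genes also showed in this direction, and in females E2 replicate 1 lay within the oil range while the others were far above it. The averaged log2 fold change was 0.51 ± 0.12 (adjusted p = 0.0187), and it was 0.49 without male E2 replicate 3 (adjusted p = 0.0506). Neither sex was called alone, at 0.56 ± 0.17 in males (adjusted p = 0.137) and 0.46 ± 0.17 in females (adjusted p = 0.16). Without female E2 replicate 1 both were called, at 0.56 (adjusted p = 0.0209) in males and 0.68 (adjusted p = 0.0118) in females. That array does not enter the male estimate. In males only the spread, estimated over all groups, and the adjustment differed. Male Gp9 was also called with array weights (0.55, adjusted p = 0.0373) and in the fit of the male groups alone (0.56, adjusted p = 0.0424).

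Itga2b (chr11:102453297-102469883) read 665, 732 and 580 in oil-treated males and 471, 556 and 531 with E2. In females it read 627, 663 and 663 with oil and 462, 500 and 389 with E2. The groups did not overlap in either sex, and the change was the smallest of the 4 genes that fell. The log2 fold change was -0.34 ± 0.11 in males (adjusted p = 0.177), -0.54 ± 0.11 in females (adjusted p = 0.0196) and -0.44 ± 0.08 on average (adjusted p = 0.00435). The female call was lost without female oil replicate 2 (-0.53, adjusted p = 0.0827) or 3 (-0.53, adjusted p = 0.08), in the fit without the filter (adjusted p = 0.0544) and in the fit of the female groups alone (adjusted p = 0.0938). Without female oil replicate 1 it was just past the threshold (-0.57, adjusted p = 0.04998). Itgb3, the beta chain that pairs with Itga2b, read 209 to 247 in oil-treated males, 231 to 253 in E2-treated males, 218 to 235 in oil-treated females and 140 to 241 in E2-treated females. Its averaged log2 fold change was -0.12 (adjusted p = 0.542).

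The probe set shared by Gp1bb and Septin5 read 88.9 to 108 over the 12 arrays, below the filter in all groups, and cannot be assigned to either gene.

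Among the genes of activation and release, Plek encodes pleckstrin, the main protein kinase C substrate of platelets, which is also made in leukocytes (chr11:16971206-17008718). It read 407, 405 and 467 in oil-treated males and 164, 216 and 244 with E2. In females it read 397, 514 and 509 with oil and 138, 190 and 135 with E2. The groups were far apart in both sexes, and several E2 values lay near or below 182, so the fold changes are approximate. The log2 fold change was -1.05 ± 0.16 in males (adjusted p = 0.00498), -1.62 ± 0.16 in females (adjusted p = 0.000277) and -1.33 ± 0.11 on average (adjusted p = 2.08e-05). These 3 calls were kept in all the alternatives run, including each fit without 1 array.

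Rab27b encodes a small GTPase that docks secretory granules at the membrane. It read 258, 260 and 248 in oil-treated males, 251, 267 and 254 in E2-treated males, 226, 246 and 248 in oil-treated females and 263, 201 and 320 in E2-treated females. The male arrays all lay within a narrow band, and only the female E2 arrays were spread. The averaged log2 fold change was 0.06 ± 0.09 (adjusted p = 0.757; 95% interval -0.14 to 0.25).

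**Figure D2:**
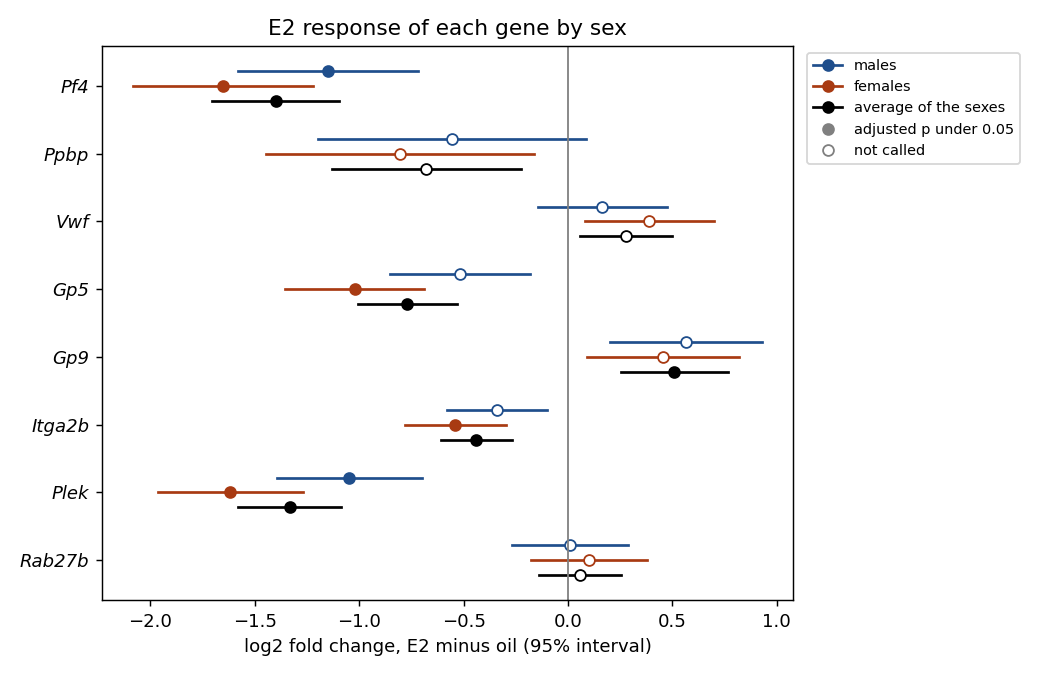
Log2 fold change (E2 minus oil) of the 8 genes for each sex and as their average, with 95% intervals from limma; Ppbp is from the fit without the filter. Filled points have an adjusted p under 0.05, which holds for Pf4 and Plek in all 3 estimates, for Gp5 and Itga2b in females and on average, and for Gp9 on average.

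The sexes were compared next. Under oil, limma called 0 of the 7 genes between females and males, and 0 had an unadjusted p under 0.05, with log2 differences from -0.15 to 0.15. Of all genes, 0.0401% were called and 4.99% had an unadjusted p under 0.05. Under E2, limma called 0 of 7, and 3 had an unadjusted p under 0.05. These were Pf4, Plek and Gp5, with female minus male log2 differences of -0.59, -0.43 and -0.46 in that order. Of all genes, 0.01% were called there and 9.04% had an unadjusted p under 0.05. The female response minus the male response was -0.50 ± 0.28 for Pf4, -0.57 ± 0.23 for Plek, -0.51 ± 0.22 for Gp5 and -0.20 ± 0.16 for Itga2b. In this comparison limma called 0 of the 7 genes (lowest adjusted p = 0.907), and 2 had an unadjusted p under 0.05, where 0.01% of all genes were called and 5.37% had such a p. After adjustment, the larger falls in females were not shown to differ from those in males. The unadjusted 95% interval of the difference was -1.11 to 0.11 for Pf4. For Plek and Gp5, the 2 genes with such a p, it was -1.06 to -0.08 and -0.98 to -0.03.

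Between arrays of a group, some of the genes varied together and others did not. After each group's mean was removed, the deviations of Pf4 over the 12 arrays had a Pearson correlation of 0.64 with those of Gp5 and 0.54 with those of Plek, and Gp5 and Plek had one of 0.62. Gp9 and Vwf had the highest value of the 28 pairs, at 0.77, and Ppbp and Rab27b the lowest, at -0.75. Of the 28 pairs, 11 lay below 0, among them Gp9 and Itga2b at -0.34, and Pf4 and Itga2b, which both fell with E2, stood at 0.16. All genes on an array share its RNA amplification and hybridisation, whose part was not tested, and these values are given as a description. Over the 12 arrays with groups included, the named genes most like Pf4 were Ltb, a lymphotoxin, at a correlation of 0.98, and the transcription factor gene Sox6, Smim5 and the corepressor gene Bcor, each at 0.95. Those most like Gp9 were Rasa4, the adhesion receptor gene Adgre5, the peptide transporter gene Tap2 and the bZIP factor gene Jdp2, each at 0.97.

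The other platelet and megakaryocyte genes were followed by role in lists of 152 further genes, of which 141 had a probe set and 119 were tested. On average 20 fell, 7 rose and 92 did not pass, so 16.8% were called lower and 5.88% higher, beside 5.78% and 3.12% of all genes. In males 3 fell and 4 rose, or 2.52% lower and 3.36% higher, beside 0.863% and 0.572% of all genes. In females 12 fell and 2 rose, or 10.1% lower and 1.68% higher, beside 2.75% and 0.813%. The median log2 fold change averaged over the sexes was -0.07. These lists, too, were chosen with earlier results of these data known, so the same limit holds for their shares. Of the 27 called genes, 19 were called in every fit without 1 array.

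**Figure D3:**
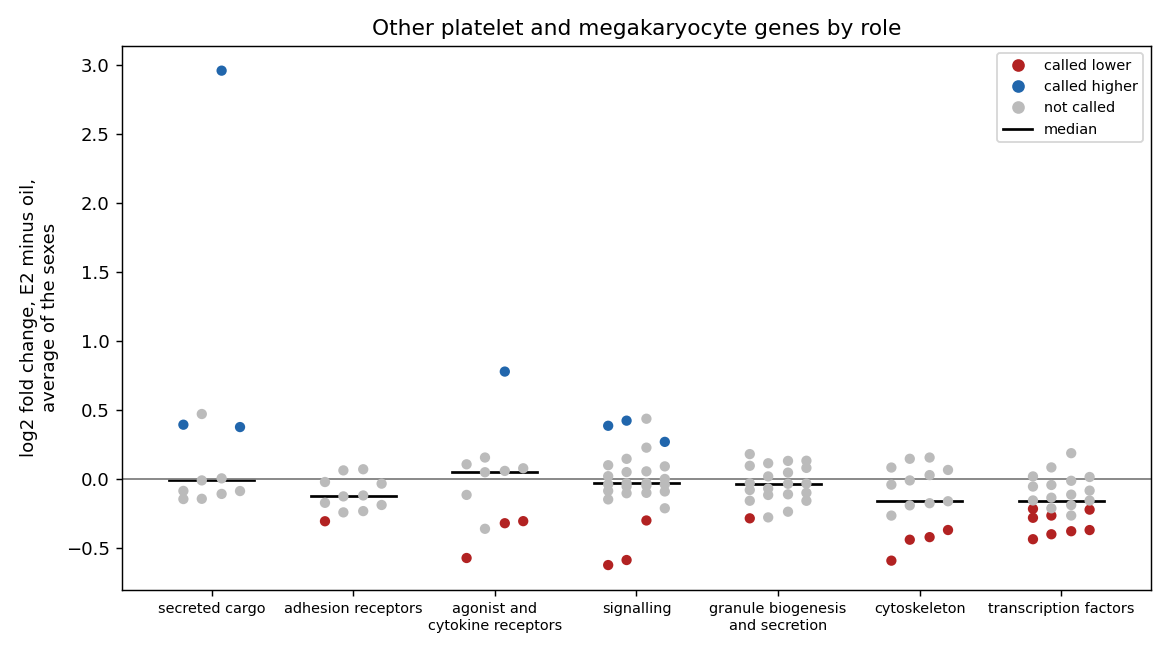
Log2 fold change (E2 minus oil, averaged over the sexes) of 119 further platelet and megakaryocyte genes, by role. Each point is a gene, colours mark calls by limma at an adjusted p under 0.05 and bars are list medians. The list of transcription factors holds 8 genes called lower and 0 called higher, and the highest point is Thbs1 at 2.96.

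Among the role lists, transcription factors of the lineage held the most calls. Of 23 tested, 8 fell, 0 rose and 15 did not pass, with a median log2 fold change of -0.15. The share called lower was 34.8%, beside 5.78% of all genes. Among 12 tested HSC markers, given further below, it was 33.3%, with a median of -0.23, so a fall of this extent was not particular to the factors. Zfpm1, the GATA cofactor FOG1, read 1138 ± 76.2 under oil and 906 ± 89.2 under E2 in males (mean ± SD, n = 3), and 1076 ± 46.9 and 751 ± 144 in females, an averaged log2 fold change of -0.43 (adjusted p = 0.0103). Tal1, a helix-loop-helix factor of blood and megakaryocyte development, went from 886 ± 61.0 to 688 ± 19.0 and from 973 ± 45.2 to 724 ± 105 (-0.40, adjusted p = 0.00447). Gata2 went from 2048 ± 81.1 to 1609 ± 56.8 and from 1919 ± 128 to 1455 ± 189 (-0.38, adjusted p = 0.0053). The ETS family gene Etv6 went from 2438 ± 134 to 2045 ± 108 and from 2321 ± 37.0 to 1878 ± 84.7 (-0.28, adjusted p = 0.00775). The others, named after their values were seen, were Gfi1b at -0.37 (adjusted p = 0.0174), Runx1 at -0.26 (adjusted p = 0.0117), Nfe2 at -0.22 (adjusted p = 0.017) and Erg at -0.21 (adjusted p = 0.0246). In females the arrays of all 8 genes were lower with E2 without overlap, and in males those of 7 were, with Gfi1b the exception. The 8 were picked by their calls on these same arrays, so this separation follows in part from the choice. The 13.1% and 13% of all genes given above are therefore no baseline for it. Fli1, an ETS factor of megakaryocytes, had a value of -0.19 (adjusted p = 0.0876) and Gata1 one of -0.26 (adjusted p = 0.0678). Erg lost its call without male oil replicates 1 or 2, male E2 replicate 1 or female oil replicates 2 or 3 (adjusted p from 0.0502 to 0.0743).

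**Figure D4:**
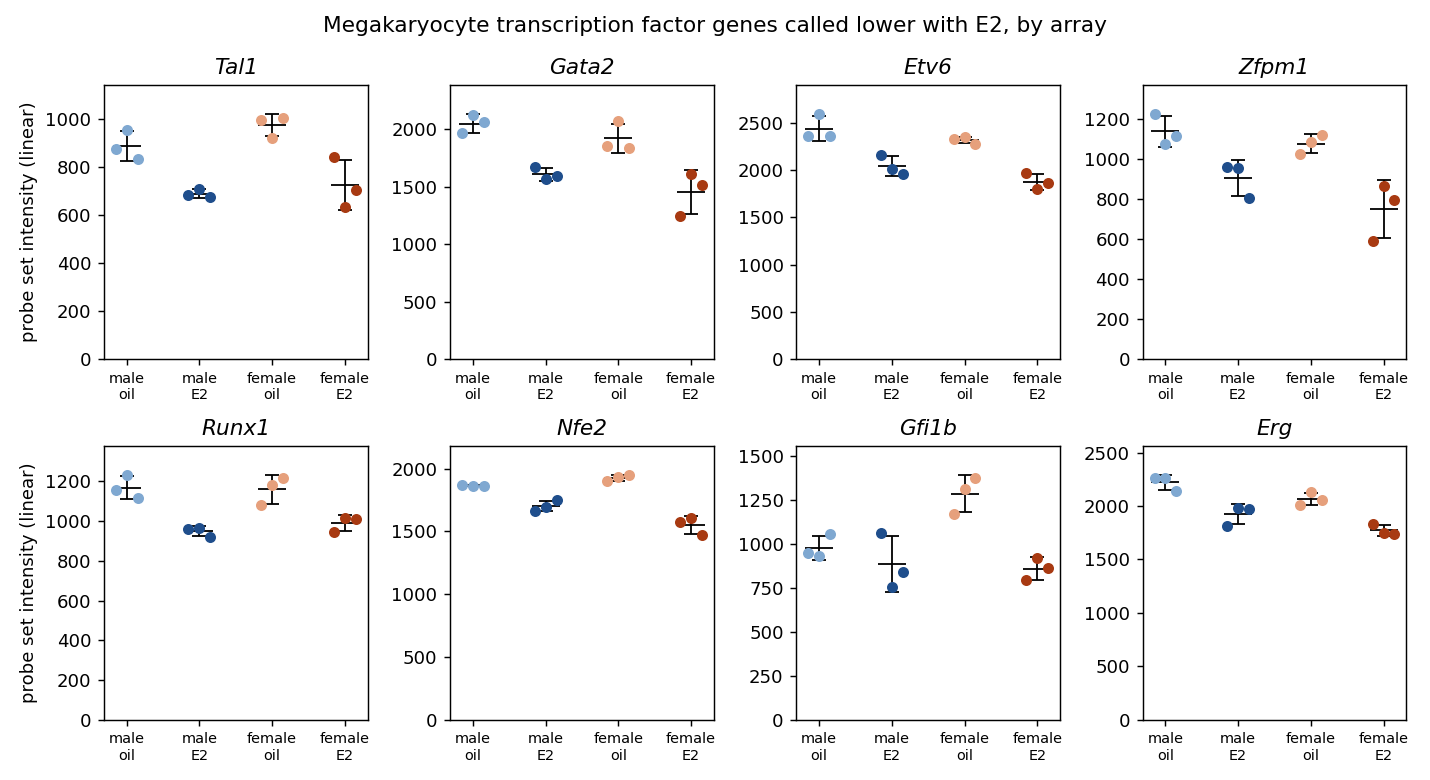
Probe set intensity (linear scale) of the 8 transcription factor genes called lower with E2 on each of the 12 arrays. Points are arrays and bars are the mean ± SD of 3 arrays. The E2 points lie below the oil points of the same sex except for Gfi1b in males.

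Receptors and signalling genes moved both ways. Of 11 further adhesion receptor genes, Esam, an adhesion molecule of endothelium, platelets and HSCs, fell at -0.30 (adjusted p = 0.00587) and 10 did not pass. Of 11 receptors of soluble agonists and cytokines, the thrombin receptor gene F2r fell at -0.57 (adjusted p = 0.000877), Kit at -0.32 (adjusted p = 0.0023) and the thrombin receptor gene F2rl2 at -0.30 (adjusted p = 0.0462). The calcium channel gene Trpc6 rose in this list at 0.78 (adjusted p = 0.00226), and 7 did not pass. Of 27 signalling genes, 3 fell, 3 rose and 21 did not pass. Lat, the adaptor downstream of the collagen receptor, fell at -0.62 (adjusted p = 0.00024), and Itpr2, a calcium release channel of internal stores, fell at -0.59 (adjusted p = 0.000356) with all E2 arrays below the filter value, at 134 to 164. Gucy1a1, a subunit of the nitric oxide receptor, rose at 0.42 (adjusted p = 0.00187) and the adaptor gene Dok2 at 0.39 (adjusted p = 0.01). The remaining calls, Prkg1 at -0.30 and Tbxas1 at 0.27, were named after their values were seen.

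Secreted proteins, release machinery and cytoskeleton completed the lists. Of 11 further secreted proteins, 3 rose, 0 fell and 8 did not pass. Thbs1, the granule glycoprotein thrombospondin 1, had the largest value at 2.96 (adjusted p = 0.000128) with male oil arrays at 88.6 to 102 and female ones at 110 to 292, so that the fold is approximate, followed by Nrgn, a calmodulin-binding protein abundant in platelets, at 0.39 (adjusted p = 0.00121) and the growth factor gene Vegfc at 0.38 (adjusted p = 0.043). Of 21 genes of granule biogenesis and secretion, Vipas39, a partner in alpha-granule sorting, fell at -0.28 (adjusted p = 0.0194) and 20 did not pass. Of 15 cytoskeletal and platelet formation genes, 4 fell, 0 rose and 11 did not pass. They were the tubulin gene Tuba8 at -0.59 (adjusted p = 0.00696), the protease gene Capn1 at -0.44 (adjusted p = 0.00357), Cavin2 at -0.42 (adjusted p = 0.0418) and the actin cross-linker gene Actn1 at -0.37 (adjusted p = 0.00873). Single arrays ended some of these calls. Without 1 array, F2rl2 and Vegfc lost theirs in 10 fits each (adjusted p up to 0.101 and 0.102), Cavin2 in 8 (up to 0.111), Prkg1 in 7 (up to 0.0766), Vipas39 in 4 (up to 0.0542) and Tbxas1 in 2 (up to 0.0576), and Itpr2 fell below the filter in 2.

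Markers of other cells were read beside these results. Of 7 tested markers of late megakaryocytes and platelets outside the 8 genes, Nrgn rose, Tuba8 fell and 5 did not pass. Their summed intensity over 14 genes ran from 5605 to 5735 in oil-treated males, from 6184 to 7198 in E2-treated males, from 5491 to 5943 in oil-treated females and from 5026 to 6883 in E2-treated females. In males the mean sum went from 5654 to 6616, and 2 genes made up most of that rise. They were Nrgn, with means of 1038 and 1473, and Gng11, with 1058 and 1521, which is 1 of the 5 that did not pass. Tubb1, the defining tubulin of platelets, read below 182 in all groups, with group means from 83.8 to 93.6. Of 12 HSC markers, Procr, Kit, Esam and Pdzk1ip1 fell, 0 rose and 8 did not pass, and their sum ran from 15207 to 15606 against 13008 to 14035 in males and from 13697 to 15142 against 11865 to 13823 in females. The granulocyte markers varied between arrays of each group, with a sum over 13 genes from 8379 to 18224 in oil-treated males, 7771 to 14370 in E2-treated males, 9872 to 23141 in oil-treated females and 5779 to 15719 in E2-treated females. Of 9 tested, Prtn3 fell at -0.29 (adjusted p = 0.0315) and 8 did not pass. All 9 estimates lay below 0 in each sex and on average. Their median log2 fold change was -0.25 in males, -0.39 in females and -0.29 on average. Itgam, the CD11b chain of myeloid cells, read 79.3 to 163 in oil-treated males and 154 to 199.8 in oil-treated females, mostly below the filter value, and 645 to 1427 and 589 to 1856 with E2. It rose (adjusted p = 2.89e-05), and its log2 fold change of 2.88 is approximate because of the low oil values. Of 8 mast cell and basophil markers, 0 lay above the filter, so none was tested. Their sum ran from 658 to 688 against 562 to 577 in males, without overlap, and from 594 to 703 against 574 to 647 in females, with overlap. Itgam is 1 of 3 tested markers that the sort excludes, and the other two, the T cell genes Cd3e and Cd4, did not pass. The sum over the 8 markers that the sort excludes ran from 957 to 1125 against 1543 to 2325 in males and from 1049 to 1170 against 1512 to 2809 in females. Without Itgam, which was left out after its values were seen, the sum over the remaining 7 overlapped between treatments, at 860 to 1046 against 863 to 898 in males and 894 to 974 against 923 to 995 in females. Of 3 tested T and NK cell markers, Nkg7, a lymphocyte granule protein, fell at -1.67 (adjusted p = 0.000182) and Cd3e and Cd4 did not pass. The sum over 10 such markers ran from 1384 to 1598 against 1080 to 1173 in males and from 1396 to 1545 against 1156 to 1238 in females. Without Nkg7, left out likewise, the remaining 9 overlapped, at 873 to 1096 against 910 to 987 in males and 881 to 1011 against 936 to 1120 in females. Among B cell markers the 1 tested gene, Cd79b, fell, and among 2 erythroid markers Tfrc rose (adjusted p = 0.0491), while 0 of 2 monocyte markers was called. Cd79b lost its call without male E2 replicate 2 (adjusted p = 0.0574), Prtn3 in 7 fits without 1 array (up to 0.0842) and Tfrc in 9 (up to 0.125). The part of these markers in the values of the platelet genes was not tested.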

How the data were processed

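Amplification used NuGEN's Ovation Pico WTA V2 kit and labelling its Encore Biotin module, per the labels' protocols. The authors deposited 1 intensity per probe set and array on a linear scale, with upper quartiles of 368 to 385 over 12 arrays. How they corrected, summarised and normalized it was not given in the sources used here. Symbols came from the platform annotation: of 35474 probe sets, 21780 had 1 symbol, 1605 several and 12089 none. Entrez identifiers of 21689 probe sets matched RefSeq (GRCm38.p6).

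Each of 19935 genes was represented by its probe set of highest mean. Values were log2 of intensity plus 1. Genes above the median of gene means (7.52, an intensity of 182) were tested, 9967 in all. limma 3.58.1 (R 4.3.3) fitted 1 mean per group to all 12 arrays, moderated by eBayes (residual df 8, prior df 5.38). P-values were adjusted by Benjamini-Hochberg across the genes tested, and an adjusted p under 0.05 was called. Each group came from 3 mice; precision is limited by this number. Figures used matplotlib 3.10.9 in Python 3.11.15.

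The genes and lists were chosen with earlier results of these data known. Named were the 10 genes, up to 4 called genes per role list with the smallest p, up to 3 called markers per list, Slamf1, Procr, Kit and Cd48, and the 4 named genes best correlated with Pf4 and with Gp9. Alternatives were 2 scalings, an offset of 16, other filters (none, 25th percentile), mean of probe sets, trend and robust estimation, array weights, compared groups alone, a replicate block and each array left out. In simulated data, independent normal values were drawn for each of 9967 genes, and 50 genes per size of change were shifted equally in both sexes. Correlation between genes was not simulated, so the rates may not hold for the real arrays. There the averaged comparison recovered 46% of changes of 0.3, 80% of 0.5 and 100% of 1 and 2 on the log2 scale. The male and female comparisons each recovered 16% of 0.3, then 56% and 52% of 0.5, 94% and 98% of 1, and 100% of 2. Groups of 3 are too small for the outlier test.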

Additional observations from a re-analysis of the deposited data

How the results depend on the processing

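Of the 7 tested genes, the number called was 2 in males, 4 in females and 5 on average, and 0 in the comparisons of the sexes. Without 1 array the male number ran from 1 to 3. It was 1 when male oil replicate 2 or male E2 replicate 1 was left out, which ended the Pf4 call, and 3 without female E2 replicate 1, which added Gp9. Over all the alternatives run, the number was 3 to 5 in females, 4 to 5 on average and 0 in the comparisons of the sexes. Signs turned only among values that were never called, in fits without 1 array. Vwf in males ran from -0.00070 (without male E2 replicate 1) to 0.29. Rab27b ran from -0.014 to 0.029 in males, below 0 without male E2 replicate 2 and without male oil replicate 3 (-0.0085). Without female E2 replicate 3 it was -0.056 in females (highest 0.28), -0.022 on average (highest 0.14) and -0.068 in the difference of responses (highest 0.27). In that difference Gp9 ran from -0.27 to 0.12, above 0 without female E2 replicate 1 and without male E2 replicate 1 (0.0058), and Ppbp ran from -0.67 to 0.011, above 0 without female E2 replicate 3. The cause was not tested.

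The replicate numbers gave no sign of pairing: deviations of same-numbered arrays correlated at -0.26 to 0.20, those of others at -0.33 to 0.28, and 0 of 12 arrays correlated best with its own number. With the replicate block, the numbers called were 2, 4 and 5, with 103, 258 and 736 of all genes called in males, females and on average.

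Counts over all genes moved more, and with them the background: 143 in males (80 with no filter, 409 with array weights, 390 with male groups alone, 62 to 327 without 1 array), 355 in females (183, 226, 67 and 115 to 549) and 887 on average (568 with no filter, 476 to 1147 without 1 array). Centring each array on its median gave 45 higher and 358 lower in females, against 81 and 274. In alternatives added after seeing the data, the factor genes called lower ran from 6 to 11 and without 1 array from 7 to 10, all role genes called lower, factors included, from 14 to 26 (14 to 23 without 1 array), and those called higher from 5 to 11, with 11 without female E2 replicate 1 (5 to 11 without 1 array). Levels near 182 limit Plek with E2 and Ppbp.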
